A study of Mus musculus with 8 samples.

Results

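The mRNAs of 10 glycolytic enzymes were followed through RNA immunoprecipitation sequencing (RIP-seq) of the embryonic mouse cortex. They were taken by Ensembl gene ID and named in pathway order as Hk2, Gpi1, Pfkl, Aldoa, Tpi1, Gapdh, Pgk1, Eno1, Pkm and Ldha. They are 10 of the 54838 genes counted, and all 10 were among the 16716 genes with enough reads to be tested. Dissociated C57BL/6 cortical cells of embryonic day 12.5 were lysed, and the lysate was pulled down either with a rabbit antibody against Exosc10 (4 libraries) or, as a mock, with normal rabbit IgG (4 libraries). The labels name no further allele or treatment in either group, and the antibody was the only labelled difference. No input RNA was analysed here, so each value sets one pull-down against the other. Whether the 4 libraries of an antibody are separate cultures is not in the labels, so a p-value here reflects only how these libraries spread, possibly for technical reasons.

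Glycolysis splits glucose into pyruvate in the cytosol, and lactate dehydrogenase then turns pyruvate into lactate. The early enzymes spend ATP to phosphorylate and cleave the sugar, and the later ones return ATP and NADH. Proliferating progenitors of the embryonic cortex are known to rely on glycolysis. Exosc10 is a 3′ to 5′ exoribonuclease of the nuclear RNA exosome, which trims and degrades RNA.

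The study asked which RNAs come down with Exosc10. Of the 10 glycolytic mRNAs, 1 was called higher with Exosc10 and 0 lower, by edgeR's quasi-likelihood test with p adjusted over all 16716 genes (Benjamini-Hochberg, threshold 0.05). At an unadjusted p under 0.05 there were 4, against 30.6% of all tested genes. The called one was Pfkl, the liver-type phosphofructokinase, at 2.09 times its IgG level. Over all tested genes 13.7% were called, 7.92% higher and 5.82% lower, so in this fit 1 of 10 lies near the background. With the library number added to the test as a block, 4 members were called higher (Hk2, Pfkl, Eno1 and Pkm) and 0 lower. Over all 16716 genes that fit called 2489 higher and 2006 lower. No label states that equal numbers mark a pair, so the fit without the block is the one reported. Across genes, however, each of the 8 libraries deviated from its group mean most like the library with its own number. Whether they are pairs is not known, and the count of called members depends on that choice. In the fit without the block, the log2 fold change, Exosc10 over IgG, was above 0 for 9 of the 10, and Gapdh was the exception. It was above 0 for 47.6% of all tested genes, 55.7% of the 1672 highest by mean CPM and 58.0% of the next 1672. Hk2, Gapdh, Pgk1 and Eno1 rank below both of those sets. The median was -0.031 over all tested genes and 0.078 and 0.099 in those sets, against 0.52 over the 10. All 10 had their highest Exosc10 value in library 1, and that library weighs heavily on the median, which was 0.18 without it. IgG library 1 was likewise the highest of its group for 8 members. The median was 0.67 without IgG library 1 and 0.30 without both libraries numbered 1.

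Library totals ran from 21731971 to 34506709 gene counts with Exosc10 and from 20967743 to 30199449 with IgG. The libraries numbered 1 were the shallowest of their groups and differed most from the others. The lowest chi-square per gene between library 1 and another of its group was 112 with Exosc10 and 111 with IgG, and among the remaining pairs the highest was 35.2 and 65.3. No pair was close enough to be one library deposited more than once (lowest 19.4). The cortical identity of the samples was not checked against marker genes, and the level of Exosc10 itself is not given, because the files pair gene IDs with no symbols. Levels are given as CPM, reads brought to one common library size with TMM factors, and are not divided by transcript length. They are compared between libraries, not between genes. The members rested on 326 to 33894 reads per library. At 326 reads the counting error alone is 5.54%, below the SD of every member over the 4 libraries of either group.

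The genes lie on 6 chromosomes of the mouse, so the set is not one locus. A promoter feature that several are known to share is the hypoxia response element, bound by hypoxia-inducible factors that drive glycolytic genes. Of its core only the form ACGTG was searched for, on both strands (as ACGTG or CACGT), and the form GCGTG was not. The search used the RefSeq windows of GRCm38.p6, from 250 bases before to 50 after each annotated start. These held all 10 members by symbol in 16 windows. The form ACGTG occurred in 7 of the 16 windows and in 6 of the 10 genes (Hk2, Aldoa, Gapdh, Pgk1, Pkm and Ldha). Over all RefSeq windows it occurred in 19.6% of 32851 windows and 21.8% of 27025 genes. Members with several windows have more chances of a match, and a match describes the letters alone. The matching Aldoa windows overlap and hold the same site, which the count of windows takes more than once. Windows of 3 members are shown, 5′ to 3′ on the gene's strand with ACGTG or CACGT in capitals. Pfkl is shown because it was the member called (chr10:78009758-78010057, minus strand). Hk2 had 2 matches (chr6:82774405-82774704, minus strand), and the first Ldha window had the most (chr7:46845554-46845853, plus strand). In the Ldha window 2 of the 3 capital runs read CACGTG, which holds ACGTG on both strands.
Pfkl: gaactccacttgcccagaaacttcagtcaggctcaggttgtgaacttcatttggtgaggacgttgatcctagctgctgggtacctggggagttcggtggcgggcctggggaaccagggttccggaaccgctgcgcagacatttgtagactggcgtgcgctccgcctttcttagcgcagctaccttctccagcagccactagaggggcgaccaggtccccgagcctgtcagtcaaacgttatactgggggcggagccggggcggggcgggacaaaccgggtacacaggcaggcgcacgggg
Hk2: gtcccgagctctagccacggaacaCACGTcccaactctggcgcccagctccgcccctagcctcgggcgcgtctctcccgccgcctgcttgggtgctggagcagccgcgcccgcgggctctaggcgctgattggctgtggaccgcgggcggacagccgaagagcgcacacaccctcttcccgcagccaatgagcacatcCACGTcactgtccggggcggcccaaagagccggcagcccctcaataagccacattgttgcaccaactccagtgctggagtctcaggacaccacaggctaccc
Ldha: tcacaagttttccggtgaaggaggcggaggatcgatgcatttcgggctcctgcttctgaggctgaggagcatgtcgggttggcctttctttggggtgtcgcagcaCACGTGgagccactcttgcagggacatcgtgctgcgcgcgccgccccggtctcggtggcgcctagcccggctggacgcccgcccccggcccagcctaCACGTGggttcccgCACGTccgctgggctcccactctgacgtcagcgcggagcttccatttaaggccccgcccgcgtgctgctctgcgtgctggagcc
The Pfkl window held no ACGTG on either strand, like the windows of Gpi1, Tpi1 and Eno1. It does hold GCGTG, the form not searched for, so these genes are not shown to lack the element. The assay counts pulled-down RNA and does not measure the promoters.

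The first enzymes of the pathway were hexokinase 2, glucose-6-phosphate isomerase and phosphofructokinase, and Pfkl was the member that separated the pull-downs. Pfkl (ENSMUSG00000020277, chromosome 10, 77986947 to 78009807, GRCm38) encodes a subunit of the enzyme that phosphorylates fructose 6-phosphate, the committed step of glycolysis. It stood at 283, 146, 162 and 167 CPM in Exosc10 libraries 1 to 4 and at 124, 95.3, 65.4 and 79.2 CPM in IgG libraries 1 to 4. Every Exosc10 library lay above every IgG library, which was true of 10.6% of all tested genes in this direction. Among the 1672 genes of its own range of mean CPM it was true of more, 304. The mean was 190 ± 63.0 CPM in the Exosc10 libraries against 90.9 ± 25.1 CPM for the mock (SD, n = 4 each). On the log2 scale the difference was 1.06 ± 0.25 (SE). Its 95% confidence bounds were 0.53 and 1.59, and the edgeR adjusted p was 0.0145. The call ended when IgG library 3 or IgG library 4 was left out (edgeR adjusted p = 0.0522 and 0.0532), with log2 fold changes of 0.93 and 1.00. It held without Exosc10 library 1, at 0.81 ± 0.20 (SE, edgeR adjusted p = 0.0157).

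Hk2 (ENSMUSG00000000628, chromosome 6, 82725025 to 82774454) encodes the inducible hexokinase that traps glucose in the cell as glucose 6-phosphate. It stood at 55.7, 42.7, 47.3 and 37.4 CPM in Exosc10 libraries 1 to 4 and at 44.5, 30.9, 18.6 and 29.8 CPM in IgG libraries 1 to 4. Only IgG library 1 reached into the Exosc10 range. At 0.56 ± 0.23 (SE, bounds 0.06 and 1.07), its log2 fold change did not pass (edgeR adjusted p = 0.121). Of the 10 members Hk2 was the one whose Exosc10 library 1 stood out least, at 1.18 times the next library.

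Gpi1 (ENSMUSG00000036427, chromosome 7, 34201327 to 34230336) encodes the isomerase between these kinases. Its values were 193, 84.9, 85.0 and 92.6 CPM with Exosc10 and 131, 84.5, 64.9 and 60.1 CPM with IgG. Both libraries numbered 1 lay above the others of their group, and IgG library 1 lay above Exosc10 libraries 2 to 4. The fold change of 0.42 ± 0.30 on the log2 scale (SE, bounds -0.22 and 1.06) did not pass (edgeR adjusted p = 0.361). It was 0.052 without Exosc10 library 1 and 0.71 without IgG library 1.

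**Figure D1:**
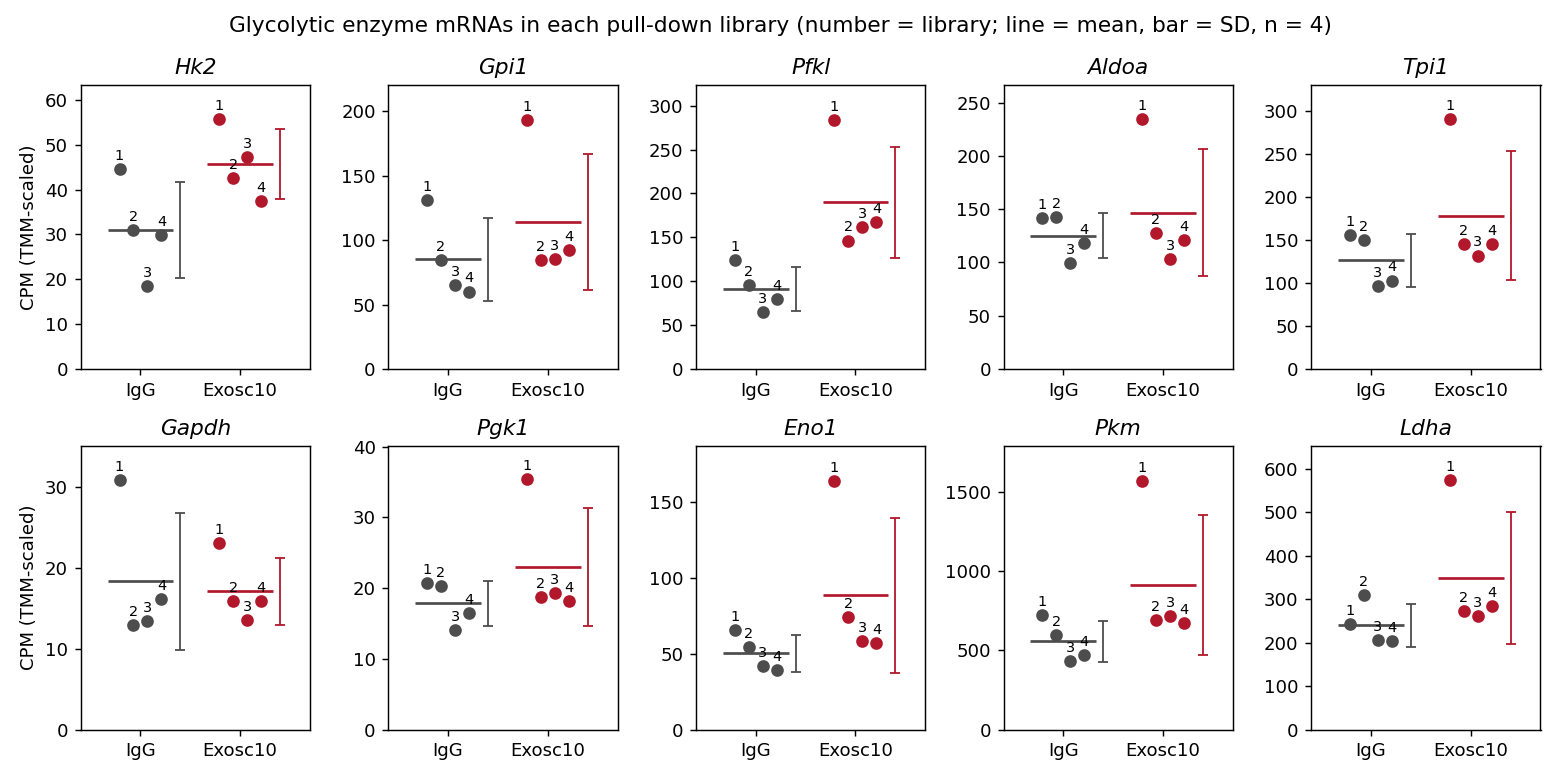
TMM-scaled CPM (linear axis from 0, one scale per panel) of each glycolytic enzyme mRNA in the 4 IgG and 4 Exosc10 libraries. Points are libraries labelled by number, lines are means and bars are SD (n = 4). Pfkl is the panel whose groups do not overlap, and Exosc10 library 1 is the highest Exosc10 point in all 10 panels.

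Aldolase and triosephosphate isomerase cleave the sugar and interconvert the resulting trioses. Aldoa (ENSMUSG00000030695, chromosome 7, 126795234 to 126800994) stood at 235, 127, 103 and 121 CPM with Exosc10 and at 141, 143, 99.1 and 118 CPM with IgG. Apart from library 1, the Exosc10 values lay inside the IgG range. Its fold change on the log2 scale was 0.23 ± 0.24 (SE, bounds -0.29 and 0.75, edgeR adjusted p = 0.564), and -0.086 without Exosc10 library 1. Tpi1 (ENSMUSG00000023456, chromosome 6, 124810586 to 124814158) showed 291, 145, 132 and 145 CPM with Exosc10 and 155, 150, 96.4 and 103 CPM with IgG. Exosc10 libraries 2 to 4 lay between the higher and the lower pair of IgG libraries. A log2 fold change of 0.50 ± 0.26 (SE, bounds -0.063 and 1.06) did not pass for Tpi1 (edgeR adjusted p = 0.215), and it was 0.17 without Exosc10 library 1.

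Gapdh, which oxidises glyceraldehyde 3-phosphate and makes NADH, and Pgk1, which returns the first ATP of the pathway, had the fewest reads of the 10. Gapdh (ENSMUSG00000057666, chromosome 6, 125161852 to 125166467) stood at 23.0, 15.9, 13.5 and 15.9 CPM with Exosc10 and at 30.9, 12.9, 13.5 and 16.2 CPM with IgG. The highest of the 8 values was IgG library 1, and the other IgG and Exosc10 libraries overlapped. On the log2 scale the change was -0.10 ± 0.27 (SE, bounds -0.69 and 0.48, edgeR adjusted p = 0.836), and it was 0.27 without IgG library 1. Pgk1 (ENSMUSG00000062070, chromosome X, 106187100 to 106203699) stood at 35.4, 18.8, 19.4 and 18.3 CPM with Exosc10 and at 20.7, 20.4, 14.1 and 16.4 CPM with IgG. Exosc10 libraries 2 to 4 lay inside the IgG range. For Pgk1 the log2 fold change was 0.36 ± 0.24 (SE, bounds -0.15 and 0.86, edgeR adjusted p = 0.327), and 0.079 without Exosc10 library 1. Gapdh, Pgk1 and several other members have near-identical processed copies in the mouse genome. How reads matching several places were counted is not given in the sources used here, so these counts are uncertain.

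The last reactions of the pathway had 2 members with an unadjusted p under 0.05. Eno1 (ENSMUSG00000063524, chromosome 4, 150236708 to 150248879), the enolase that forms phosphoenolpyruvate, stood at 164, 74.3, 58.4 and 56.9 CPM with Exosc10 and at 65.4, 54.7, 41.7 and 39.0 CPM with IgG. Exosc10 libraries 1 and 2 lay above all IgG libraries, and Exosc10 libraries 3 and 4 lay below IgG library 1. With 0.81 ± 0.31 on the log2 scale (SE, bounds 0.16 and 1.47), Eno1 did not pass (edgeR adjusted p = 0.0907), and the value was 0.34 without Exosc10 library 1. Pkm (ENSMUSG00000032294, chromosome 9, 59656576 to 59679372), the pyruvate kinase gene whose splice forms are PKM1 and PKM2, stood at 1570, 691, 713 and 675 CPM with Exosc10 and at 720, 597, 434 and 473 CPM with IgG. Only IgG library 1 reached above the lower Exosc10 libraries. Pkm had a log2 fold change of 0.71 ± 0.28 (SE, bounds 0.12 and 1.31, edgeR adjusted p = 0.101), and 0.33 without Exosc10 library 1. The counts are per gene and do not separate the splice forms.

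Ldha (ENSMUSG00000063229, chromosome 7, 46842274 to 46855627), which regenerates NAD+ by reducing pyruvate to lactate, stood at 574, 273, 261 and 285 CPM with Exosc10. With IgG it stood at 243, 309, 205 and 204 CPM. IgG library 2 lay above Exosc10 libraries 2 to 4. The change on the log2 scale was 0.54 ± 0.26 (SE, bounds -0.015 and 1.09, edgeR adjusted p = 0.174), and 0.19 without Exosc10 library 1.

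The intervals of the 9 members without a call are wide. Those of Hk2, Eno1 and Pkm lie above 0 before adjustment over all genes. The upper bounds of Gpi1, Tpi1 and Ldha, from 1.06 to 1.09, reach past a 2-fold difference. A missing call therefore does not show that these mRNAs came down equally.

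**Figure D2:**
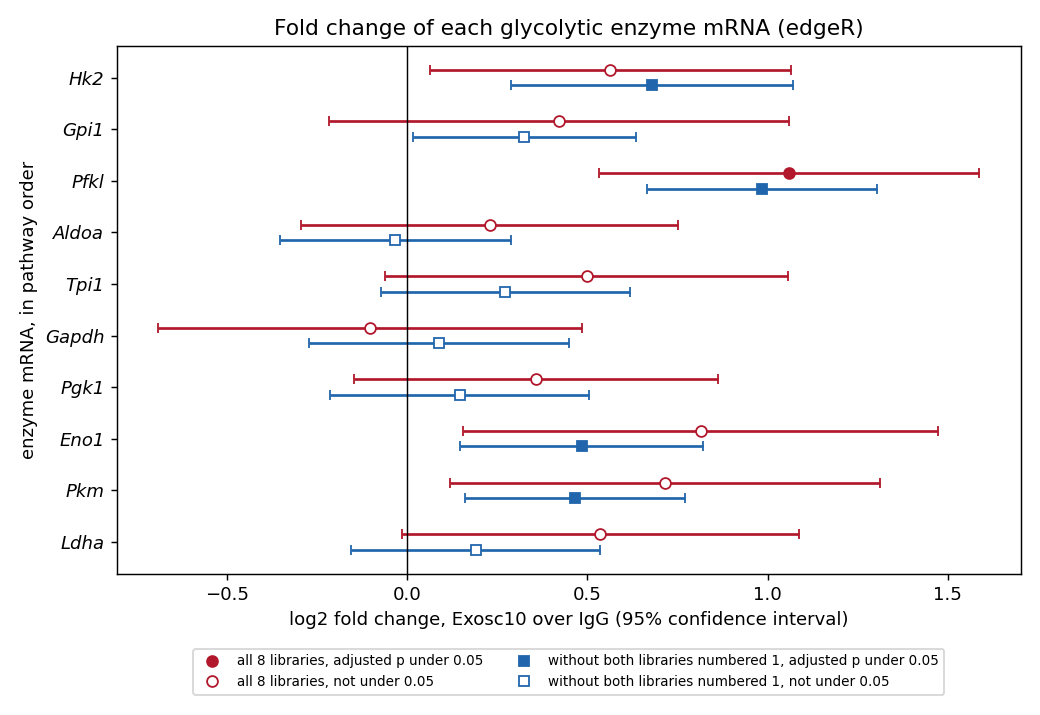
Log2 fold change, Exosc10 over IgG, of each mRNA in pathway order with its 95% confidence interval, with all 8 libraries (circles) and without both libraries numbered 1 (squares). Filled symbols have an edgeR adjusted p under 0.05. Pfkl is filled in both fits, at 1.06 and 0.98, while Hk2, Eno1 and Pkm are filled only in the second.

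Because the libraries numbered 1 stand apart, the same test was read without them, leaving 3 libraries a group. Then 4 of the 10 members were called higher and 0 lower: Pfkl, Hk2, Eno1 and Pkm. In that fit 17.1% of all 16963 tested genes were called higher and 15.1% lower. Pfkl had a log2 fold change of 0.98 ± 0.15 (SE, edgeR adjusted p = 0.000228). Hk2 was at 0.68 ± 0.18 (SE, edgeR adjusted p = 0.0108), with 42.0 ± 4.8 CPM against 26.2 ± 6.8 CPM (SD, n = 3 each). Eno1 was at 0.48 ± 0.16 and Pkm at 0.47 ± 0.14 (SE, edgeR adjusted p = 0.0289 and 0.0218). The Eno1 and Pkm fold changes were thus smaller than with all libraries, while their standard errors had been 0.31 and 0.28 with all libraries. The members' median was 0.30, against -0.036 over all tested genes. Aldoa was at -0.033, Gapdh at 0.088, Pgk1 at 0.15, Ldha at 0.19, Tpi1 at 0.27 and Gpi1 at 0.33, all with an edgeR adjusted p of 0.100 or more. In 5 of the 10 members, the 4 called and Gpi1, the remaining libraries of the groups did not overlap, with Exosc10 higher, against 23.6% of all tested genes.

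The 10 mRNAs were mostly high in the same libraries and low in the same libraries. Exosc10 library 1 was the highest of the 8 libraries for 9 members, and IgG library 1 was the highest for Gapdh. Within its group Exosc10 library 1 was the highest for 10 of 10 members, against 38.2% of all tested genes, and it stood at 1.18 times (Hk2) to 2.20 times (Eno1 and Pkm) the next Exosc10 library. IgG library 1 was the highest of its group for 8 members, against 35.9% of all tested genes, with IgG library 2 the highest for Aldoa and Ldha. The lowest of the 8 libraries was IgG library 3 for 6 members, IgG library 4 for 3 and IgG library 2 for 1. Within its group IgG library 3 was the lowest for 6 members, against 4350 of the 16716 tested genes. How often a library was the highest or lowest of the 8 over all genes was not counted. The median member deviated from its own mean over the 8 libraries by 1.03 on the log2 scale in Exosc10 library 1. In Exosc10 libraries 2 to 4 that median was between -0.098 and -0.0088, and in IgG libraries 1 to 4 it was 0.094, -0.16, -0.55 and -0.47. The part of the preparation of the libraries numbered 1 in these differences was not tested.

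**Figure D3:**
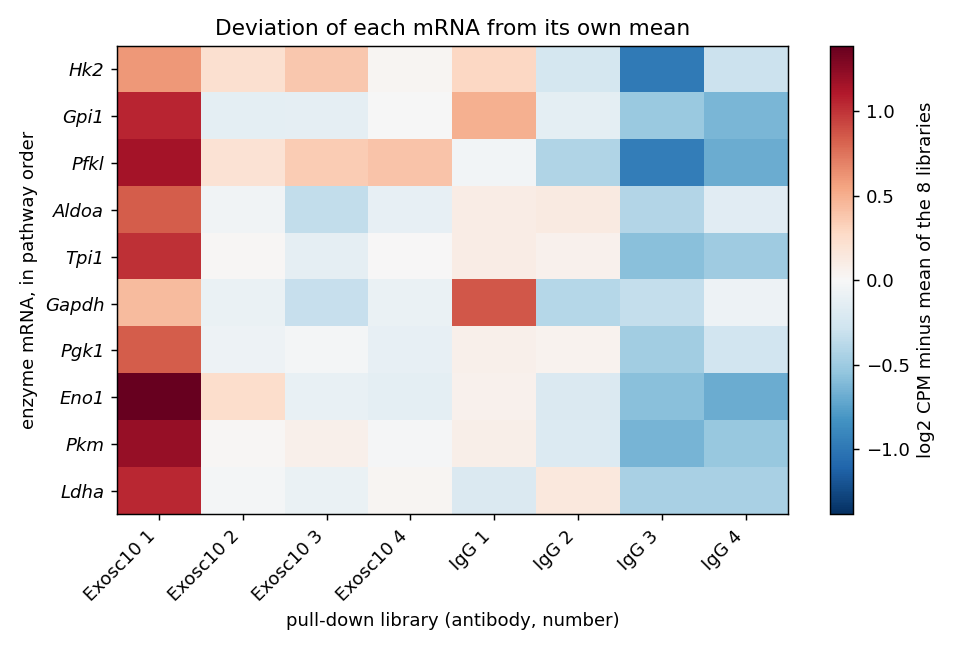
Log2 CPM (prior count 2) of each mRNA in each library minus its mean over the 8 libraries. Red is above and blue below the mean. The Exosc10 1 column is red in all 10 rows. Exosc10 libraries 2 to 4 are at 0.20, 0.35 and 0.39 in the Pfkl row. In the Hk2 row they are at 0.22, 0.37 and 0.032, the last close to the mean.

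Together the 10 mRNAs took 0.340%, 0.165%, 0.155% and 0.160% of all gene counts in Exosc10 libraries 1 to 4 and 0.178%, 0.149%, 0.100% and 0.115% in IgG libraries 1 to 4. IgG library 1 lay above Exosc10 libraries 2 to 4, so the groups overlap. The means were 0.205% ± 0.0902 with Exosc10 and 0.136% ± 0.0351 with IgG (SD, n = 4 each), and no test was made of a sum over chosen members. Without the libraries numbered 1 they were 0.160% ± 0.0050 and 0.121% ± 0.0252 (SD, n = 3 each). The difference between the means was 0.0694 percentage points with all libraries and 0.0244 without Exosc10 library 1. Pkm alone supplied 41.8% to 45.9% of the members' reads with Exosc10 and 39.9% to 43.0% with IgG, so the sum does not weigh the members equally.

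**Figure D4:**
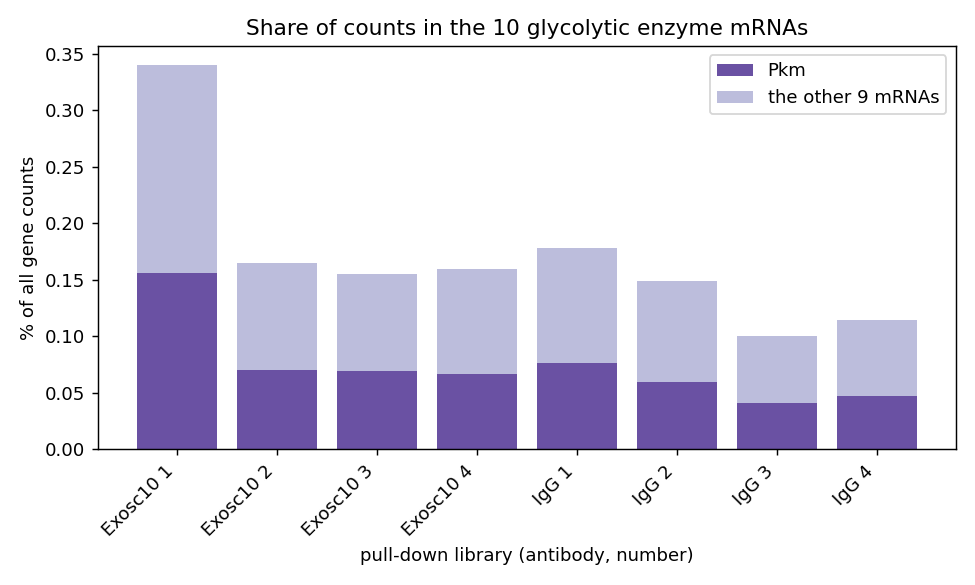
Percent of all gene counts of a library that fell in the 10 mRNAs (bars from 0), divided into Pkm and the other 9, for each of the 8 libraries. Exosc10 library 1 stands at 0.340%, and the other 7 libraries lie between 0.100% and 0.178%.

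Ratios between members of the same library do not depend on scaling. Each enzyme was set against the one before it, which gave 9 ratios, compared by an exact permutation test, two-sided, over the 70 ways to assign the libraries (smallest possible p = 0.0286) and adjusted over the 9. This comparison was added after the values had been seen. Neither ratio with Pfkl overlapped between the groups. The log2 ratio of Pfkl to Gpi1 ran from 0.55 to 0.93 with Exosc10 and from -0.080 to 0.40 with IgG, a difference of 0.65 in the means. That of Aldoa to Pfkl ran from -0.65 to -0.20 with Exosc10 and from 0.19 to 0.60 with IgG, a difference of -0.88. A smaller shift without overlap was found for Tpi1 over Aldoa, at 0.19 to 0.35 with Exosc10 and -0.20 to 0.14 with IgG, a difference of 0.28. Each of the 3 had an exact permutation p of 0.0286 and an adjusted p of 0.0858, which does not pass 0.05. That p is the smallest possible, so it only restates the lack of overlap. With 3 of the 9 ratios at that smallest p, none could pass after adjustment. In the other 6 ratios the groups gave an exact permutation p of 0.0857 to 0.629. The 9 ratios share members, so they are not independent of each other. As a share of the members' reads, Pfkl held 8.27% to 10.3% with Exosc10 and 6.21% to 7.39% with IgG, whereas Gapdh held 0.672% to 0.982% and 0.862% to 1.84%, which overlap.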

How the data were processed

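RNA from Exosc10 and IgG pull-downs (4 libraries each) was sequenced. The authors deposited 1 file per library with raw read counts for 54838 Ensembl gene IDs. Per the submitters' processing notes the tools included STAR 2.5.2a for mm10 and, for counting, featureCounts 1.5.0-p1. The annotation release, strand setting and treatment of multi-mapping or duplicate reads are not given in the sources used here. Groups and numbers came from the titles. Genes passing filterByExpr (minimum count 10, minimum total 15) were given TMM factors (trimmed mean of M-values) and tested with edgeR 4.0.16 (R 4.3.3, quasi-likelihood F-test, no covariate), with Benjamini-Hochberg adjustment over all of them. The function was tested on counts simulated for each gene independently, with no shift shared by the genes of a library. SE is the log2 fold change over the square root of F. Alternatives used DESeq2 1.42.0, limma 3.58.1, other scalings and filters, thinning, a replicate block and left-out libraries. The members, lists and tests were chosen with earlier results of these data known. All 10 members are named. Symbols came with the member IDs, and RefSeq (GRCm38.p6, the build of mm10) gave positions and promoters by symbol. Since the RefSeq table holds no Ensembl IDs, the lists of other pathway genes (isoforms, transporters, regulators, pyruvate dehydrogenase, pentose phosphate) and of cell type markers were not tested.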

Additional observations from a re-analysis of the deposited data

Results flagged for a closer look

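Exosc10 library 1 lay far above the other 3 Exosc10 libraries, by Dixon's test, for 7 of the 10 mRNAs. Its values were 193 CPM for Gpi1, 283 CPM for Pfkl, 291 CPM for Tpi1, 35.4 CPM for Pgk1, 164 CPM for Eno1, 1570 CPM for Pkm and 574 CPM for Ldha. The same library stood apart in the percent of counts held by the 10 mRNAs, at 0.340%. These were 8 of 22 groups of 4 values examined, where chance marks about 1 in 20. The 22 groups share libraries and are not independent. No IgG group was marked. The part of how this library was prepared was not tested.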

How the results depend on the processing

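Pfkl kept its direction in 19 alternatives (0.81 to 1.25) and its call in 17 of them, the exceptions being those without IgG library 3 and without IgG library 4 (range of adjusted p 4.29e-05 to 0.0532). The count of called members, 1 as reported, was 2 with DESeq2 (Pfkl, Eno1), 5 with limma-voom and sample weights (Hk2, Pfkl, Tpi1, Eno1, Pkm), and 4 (Hk2, Pfkl, Eno1, Pkm) with no filter, without both libraries numbered 1 and with the replicate block. It was 0 to 3 when 1 library was left out, 0 without IgG library 3 or 4 and 3 without IgG library 1. No alternative called a member lower. These counts stand beside large changes over all genes. Of 16716 genes tested, 2297 calls became 3391 with DESeq2, 6374 with limma-voom and 4495 with the replicate block. With no filter they became 2769 of 30694, and without both libraries numbered 1 they became 5463 of 16963. They were 880 to 4046 when 1 library was left out. The cause was not tested. With the replicate block Pfkl was at 1.05, Eno1 at 0.70, Pkm at 0.64 and Hk2 at 0.61 (edgeR adjusted p = 0.000545, 0.00822, 0.0120 and 0.0232). Same-numbered libraries deviated alike from their group means with correlations across genes of 0.344, 0.0948, 0.338 and 0.221; as 1 was under 0.1, no pairing was assumed, although each of the 8 correlated most with its own number. Signs turned for Gapdh (-0.10 as reported, 0.0019 with limma-voom, 0.088 without both libraries numbered 1, -0.27 to 0.27 when 1 library was left out) and Aldoa (0.23 as reported, -0.033 without both libraries numbered 1, -0.086 to 0.37 when 1 was left out), neither called in any alternative. Leaving out 1 library moved the members' median between 0.18 (Exosc10 library 1 left out) and 0.67 (IgG library 1), and the difference in their share of counts between 0.0244 and 0.0861 percentage points. Under upper-quartile scaling the median of all genes was -0.11, with 1025 higher and 1369 lower calls against 1324 and 973 as reported, and that of the members 0.45. The 3 ratios without overlap kept their sign without each library in turn, but groups that do not overlap must do so, which adds no information. At the lowest member count, 326 reads, the counting error is 5.54%.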

Other observations

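Gapdh, commonly used as an abundant reference mRNA, ranked 9050 of 16716 tested genes by mean CPM over the 8 libraries, and Pgk1 ranked 8621, while Pkm ranked 76. CPM is not divided by transcript length, so these ranks do not order the mRNAs by abundance. How reads matching several places were counted is not given in the sources used here.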
